A study of Mus musculus with 19 samples.

Results

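The TGF-beta pathway of retinal microglia was described here by 10 genes, which were selected by symbol: the ligand *Tgfb1*, its tether *Nrros*, the receptors *Tgfbr1* and *Tgfbr2*, the transducers *Smad2*, *Smad3* and *Smad4*, and the inhibitors *Smad7*, *Ski* and *Skil*. All 10 were found among the 27299 genes of the bulk RNA-seq table. Microglia are the resident macrophages of the retina. They were sorted from the central retina of mice aged 8 weeks, either 3 days after argon laser burns that rupture the retinal pigment epithelium and start choroidal neovascularization (CNV d3, 6 samples) or from eyes without laser treatment (control, 6 samples). The sort kept viable cells that carried CD11b and CX3CR1 and lacked Ly6C and Ly6G, which mark monocytes and neutrophils. The labels give the mice of both groups as C57BL/6J and the cells as CD45+, while the methods name *Cx3cr1* GFP/+ mice, in which GFP stands in place of a copy of *Cx3cr1*, and cells with low CD45. The sources used here do not say how many mice a sample held or whether samples came from separate mice, so p-values measure the spread between these samples.

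TGF-beta is secreted in a latent form, wrapped in its own propeptide, and in microglia the surface protein NRROS holds this latent form until integrins release it. The free ligand binds the receptor kinase TGFBR2, which activates its partner kinase TGFBR1. TGFBR1 phosphorylates SMAD2 and SMAD3, which join SMAD4 and enter the nucleus to regulate genes. SMAD7 blocks the receptors, and SKI and SKIL (SnoN) repress the SMAD complexes on DNA. In mice, microglia need this signal to take on and keep their mature gene expression.

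Both receptor genes were lower at CNV d3, with *Tgfbr1* at 55.5% and *Tgfbr2* at 73.4% of their control level (from log2FC on the log2(normalized counts + 1) scale). *Smad2* was also lower, at 64.7%. The other 7 members, among them the ligand *Tgfb1*, did not pass the test. Their 95% intervals reached from a log2FC of -0.62 (lower bound of *Smad3*) to 0.53 (upper bound of *Smad7*). A normalized count is a read count divided by the size factor of its sample. The groups were compared with limma over all 27299 genes with Benjamini-Hochberg adjustment, and a gene was called with an adjusted p (padj) under 0.05.

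The 3 members that were lower stand beside 4.57% of all genes that were called lower, and the 0 members that were higher beside 8.29% called higher. At an unadjusted p under 0.05, limma found 0 members higher and 4 lower, the fourth being *Nrros*. The share of all genes at this threshold is not given here, so this count has no baseline. edgeR on the recovered reads called 0 members higher and 3 lower, and DESeq2 0 and 4. All members were well expressed, with a mean of at least 1380 normalized counts. Among genes with a mean of at least 1000, 15.1% were called lower and 22.0% higher. The median log2FC was -0.15 over the 10 members, 0.06 over genes with a mean of at least 1000 and 0.15 over all genes. No member was a DEG by the rule of the study, an absolute log2FC above 1.5 with a padj under 0.05, against 4.99% of all genes. In no member did the 2 groups lie fully apart, against 7.47% of all genes.

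The CNV d3 samples were not uniform. *Ddx3y*, a gene of the Y chromosome, had 0 reads in all control samples and in CNV d3 replicates 1 to 3, but between 1239 and 1450 normalized counts in CNV d3 replicates 4 to 6. *Xist*, which is expressed from the inactive X chromosome, had 6522 to 9795 normalized counts in the control samples and 3116 to 5245 in CNV d3 replicates 1 to 3, but at most 0.866 in replicates 4 to 6. The labels give no sex. Results below are therefore also given without CNV d3 replicates 4 to 6, a comparison chosen after seeing the data, in which 1.98% of all genes were called lower and 3.74% higher. It called 1 member, *Tgfbr2*. Between 10963178 and 22335233 reads lay on genes in control samples and between 23532260 and 29523018 in CNV d3 samples.

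The microglial origin of the cells was checked on 12 marker genes. None was at 0 in the control samples, and their summed level was between 1285841 and 1471474 normalized counts in control and between 707530 and 1066008 at CNV d3, so that the groups did not overlap. Of these markers 8 were called lower and 1, *Itgam*, higher. Markers of monocytes summed to between 386 and 1178 normalized counts in control and between 1413 and 5106 at CNV d3, with 5 of 9 called higher and *Ly6c2* and *Chil3* at 0 in all control samples. Markers of dendritic cells rose in 4 of 6 genes (summed level 5.63 to 476 and 198 to 2092), with *Cd209a* at 0 in all control samples. Of the perivascular macrophage markers, 3 of 8 were called higher, while the ranges of their sums overlapped (175 to 2517 and 607 to 1039), and *Clec10a* was at 0 in all control samples. All 10 genes of cell division were called higher (summed level 88.3 to 1366 and 9175 to 22706). In the comparison without CNV d3 replicates 4 to 6, 7 microglia markers were called lower and 1 higher. Fewer genes of the other lists passed there (1 of monocytes, 2 of dendritic cells and 3 of cell division), with log2FC about as large: 1.69 to 5.21 against 1.73 to 5.60 for the 5 monocyte genes called with all samples, 3.28 to 4.52 against 3.03 to 4.30 for the 3 perivascular macrophage genes, and 3.16 to 8.95 against 3.19 to 9.16 for the cell division genes. For genes at 0 in all control samples such a value depends on the 1 added before the logarithm and is no bound. Of 7 Mueller glia and astrocyte genes, *Clu* and *Dkk3* were called higher and *Slc1a3* lower (summed level 6803 to 9780 in control and 5232 to 7644 at CNV d3). *Glul*, which was not called, weighs most in this sum, with means of 5723 in control and 4734 at CNV d3. The median log2FC of the 7 genes was 2.31, that of *Aqp4*, which was at 0 in 4 control samples. Of 7 endothelial and pericyte genes, *Kdr* and *Cspg4* were called higher and *Pecam1* lower (521 to 990 and 680 to 1234), and *Cspg4* had 3 reads in all control samples together and 1624 at CNV d3. Among 6 neutrophil genes *Mmp9* was called higher, with sums of at most 22.3 and 40.3. The sums of 8 photoreceptor genes overlapped between groups (751 to 6674 and 570 to 12749). The markers named here that were called were picked after their values were seen. The part of these cells in the changes of the members was not tested. In bulk samples, fewer microglia and less RNA per microglia cannot be told apart.

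The 250 bases before the start of each receptor gene are shown because these 2 genes were lower together. RefSeq (GRCm38.p6) gave such windows for 6 of the 10 members. The sequences are on the strand of the gene, and capitals mark matches on either strand to the GC box GGGCGG or the Smad binding element CAGAC. The *Tgfbr1* window lies on the plus strand at chr4:47352972-47353221 and the *Tgfbr2* window on the minus strand at chr9:116175364-116175613.
Tgfbr1: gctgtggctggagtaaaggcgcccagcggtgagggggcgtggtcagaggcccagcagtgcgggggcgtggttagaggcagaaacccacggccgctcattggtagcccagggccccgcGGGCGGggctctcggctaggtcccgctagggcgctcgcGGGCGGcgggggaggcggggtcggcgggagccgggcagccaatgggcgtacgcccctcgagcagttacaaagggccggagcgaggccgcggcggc
Tgfbr2: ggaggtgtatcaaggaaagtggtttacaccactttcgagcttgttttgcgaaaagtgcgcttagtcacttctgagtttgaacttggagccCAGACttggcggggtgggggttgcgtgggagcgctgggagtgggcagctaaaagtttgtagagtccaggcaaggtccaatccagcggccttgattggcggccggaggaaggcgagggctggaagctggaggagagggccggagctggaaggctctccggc
The *Tgfbr1* window held 2 GC boxes and no CAGAC, and the *Tgfbr2* window held 1 CAGAC and no GGGCGG. Matches of the 2 motifs did not overlap. Of all 32851 windows of this length, 32.7% held GGGCGG and 42.2% held CAGAC, so either match was common. RefSeq gave *Tgfbr1* a further window inside the gene, with 1 CAGAC. G and C made up 74.8% of the first *Tgfbr1* window and 58.4% of the *Tgfbr2* window, and 52.4% in the median window. These matches are letters in a window, not sites shown to be bound.

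*Tgfbr1* (ENSMUSG00000007613), the receptor kinase that phosphorylates SMAD2 and SMAD3, lies on chromosome 4 from 47353222 to 47414931 (GRCm38). Its control samples had a lowest value of 35421 normalized counts, a median of 56743 and a highest value of 67556. At CNV d3 the lowest value was 23245, the median 29970 and the highest 37009. A single control sample, replicate 3 with 35421, fell into the range of CNV d3, and the next control value was 53118. The mean was 54898 ± 10726 in control and 30444 ± 6161 at CNV d3 (SD, n = 6 each), a log2FC of -0.85 (SE 0.15, padj = 0.00182 by limma). The log2FC was -0.94 without CNV d3 replicates 4 to 6 and just missed the call (padj = 0.0505 by limma).

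*Tgfbr2* (ENSMUSG00000032440), the receptor kinase that binds the ligand first, lies on chromosome 9 from 116084293 to 116175360. Its values were 31802, 35940 and 38129 normalized counts in the lowest, median and highest control sample. At CNV d3 they were 23138, 25381 and 32559. Control replicate 5 with 31802 lay below CNV d3 replicate 4 with 32559, and all other control samples lay above all CNV d3 samples. The mean fell from 35556 ± 2530 to 26213 ± 3489 (SD, n = 6 each), a log2FC of -0.45 (SE 0.08, padj = 0.00246 by limma). *Tgfbr2* was also called without CNV d3 replicates 4 to 6, with a log2FC of -0.53 (padj = 0.0083 by limma). By level per kilobase of exon in the control samples, *Tgfbr1* ranked 78th and *Tgfbr2* 175th of 27238 genes with a known exon length.

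**Figure D1:**
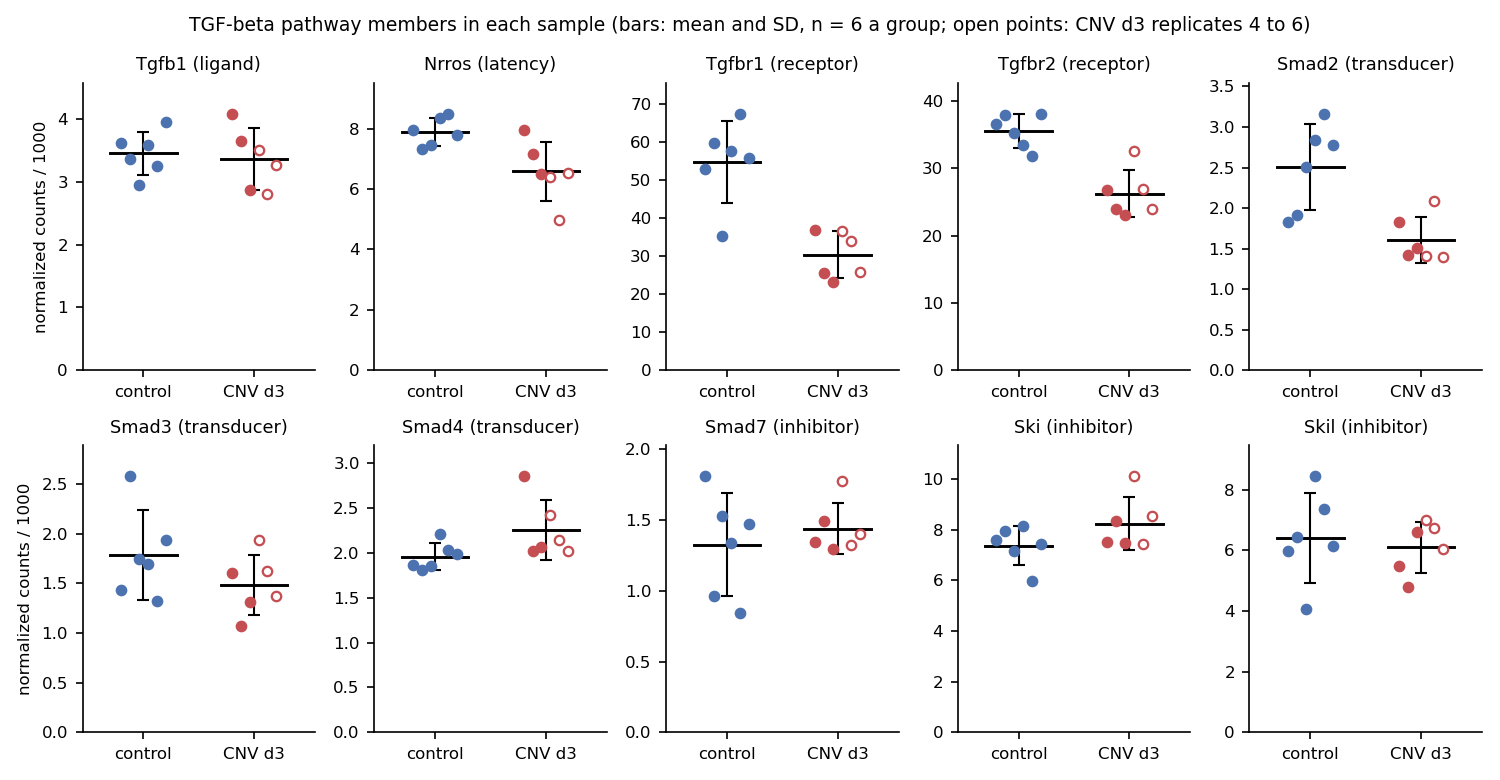
Normalized counts (divided by 1000, linear axes from 0) of the 10 members in each of the 6 control and 6 CNV d3 samples, with the mean and SD of each group as black lines. Open points are CNV d3 replicates 4 to 6, which carry reads of *Ddx3y*. The control and CNV d3 values of *Tgfbr1* overlap only through the lowest control sample (35421), and those of *Tgfb1*, *Skil* and *Smad7* overlap widely.

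*Tgfb1* (ENSMUSG00000002603, chromosome 7 from 25687002 to 25705077), the TGF-beta ligand that microglia make, had nearly equal ranges in both groups. Control samples had 2950, 3475 and 3964 normalized counts as lowest, median and highest value, and CNV d3 samples 2805, 3393 and 4088. The log2FC was -0.04 with a 95% interval from -0.28 to 0.19 (padj = 0.801 by limma). Its sign turned without CNV d3 replicates 4 to 6 (log2FC 0.02), so no direction can be given.

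*Nrros* (ENSMUSG00000052384, chromosome 16 from 32142785 to 32165594), the tether of latent TGF-beta, had 7317, 7868 and 8495 normalized counts as lowest, median and highest control value. The CNV d3 values were 4986, 6513 and 7948. Of the 6 CNV d3 samples, 5 lay below every control sample, and only CNV d3 replicate 1 with 7948 lay within the control range. The log2FC of -0.27 (SE 0.10) did not pass the test (padj = 0.0881 by limma). It passed without CNV d3 replicate 1 (log2FC -0.33, padj = 0.033 by limma) and not without CNV d3 replicates 4 to 6 (log2FC -0.13, padj = 0.402 by limma). CNV d3 replicates 4 to 6 had a mean of 5974 and replicates 1 to 3 of 7204.

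*Smad2* and *Smad3* encode the SMADs that the receptors phosphorylate. *Smad2* (ENSMUSG00000024563, chromosome 18 from 76241580 to 76310963) had 1831, 2640 and 3163 normalized counts as lowest, median and highest control value and 1396, 1462 and 2087 at CNV d3. CNV d3 replicate 5 with 2087 lay above control replicates 1 (1831) and 2 (1912), and the other 5 CNV d3 samples lay below every control sample. The log2FC was -0.63 (SE 0.16, padj = 0.0141 by limma). The call was lost without CNV d3 replicate 6 (log2FC -0.59, padj = 0.051 by limma) and without CNV d3 replicates 4 to 6 (log2FC -0.64, padj = 0.121 by limma). It was also lost with log2(normalized counts + 1) of *Ddx3y* as a covariate (log2FC -0.64, padj = 0.0679 by limma). Only CNV d3 replicates 4 to 6 have reads of *Ddx3y*, so this covariate mainly sets these samples apart and is close to leaving them out. In these fits the log2FC stayed between -0.59 and -0.64.

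*Smad3* (ENSMUSG00000032402, chromosome 9 from 63646767 to 63757994) had 1322, 1721 and 2581 normalized counts as lowest, median and highest control value and 1075, 1487 and 1941 at CNV d3. The ranges overlapped broadly, and the log2FC of -0.25 had a 95% interval from -0.62 to 0.11 (padj = 0.404 by limma). The log2FC was -0.41 without CNV d3 replicates 4 to 6 (padj = 0.402 by limma). *Smad4* (ENSMUSG00000024515, chromosome 18 from 73639009 to 73703780), the common partner of both, had 1807, 1921 and 2203 normalized counts in control and 2017, 2104 and 2854 at CNV d3. All 6 CNV d3 samples lay above the control mean of 1957, but the log2FC of 0.19 did not pass the test (SE 0.11, padj = 0.285 by limma), nor did that of 0.23 without CNV d3 replicates 4 to 6 (padj = 0.4 by limma).

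The 3 inhibitors did not pass the test. *Smad7* (ENSMUSG00000025880, chromosome 18 from 75367529 to 75395935), itself a target of TGF-beta, ranged from 843 to 1808 normalized counts with a median of 1405 in control and from 1291 to 1775 with a median of 1370 at CNV d3. Its log2FC was 0.16 (95% interval -0.22 to 0.53, padj = 0.604 by limma), and it ran from 0.04 without control replicate 5 to 0.26 without control replicate 1. *Ski* (ENSMUSG00000029050, chromosome 4 from 155154075 to 155222592) ranged from 5993 to 8157 with a median of 7512 in control and from 7459 to 10125 with a median of 7932 at CNV d3. Its log2FC was also 0.16 (SE 0.10, padj = 0.349 by limma). *Skil* (ENSMUSG00000027660, chromosome 3 from 31095058 to 31122577) ranged from 4079 to 8455 with a median of 6293 in control, and the CNV d3 samples, between 4799 and 7008 with a median of 6315, all lay within this range. Its log2FC was -0.05 (SE 0.15, padj = 0.85 by limma), and the sign turned when single samples were left out. Without CNV d3 replicates 4 to 6, the log2FC was 0.10 for *Smad7*, 0.08 for *Ski* and -0.16 for *Skil*, with the lowest padj at 0.71 by limma.

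**Figure D2:**
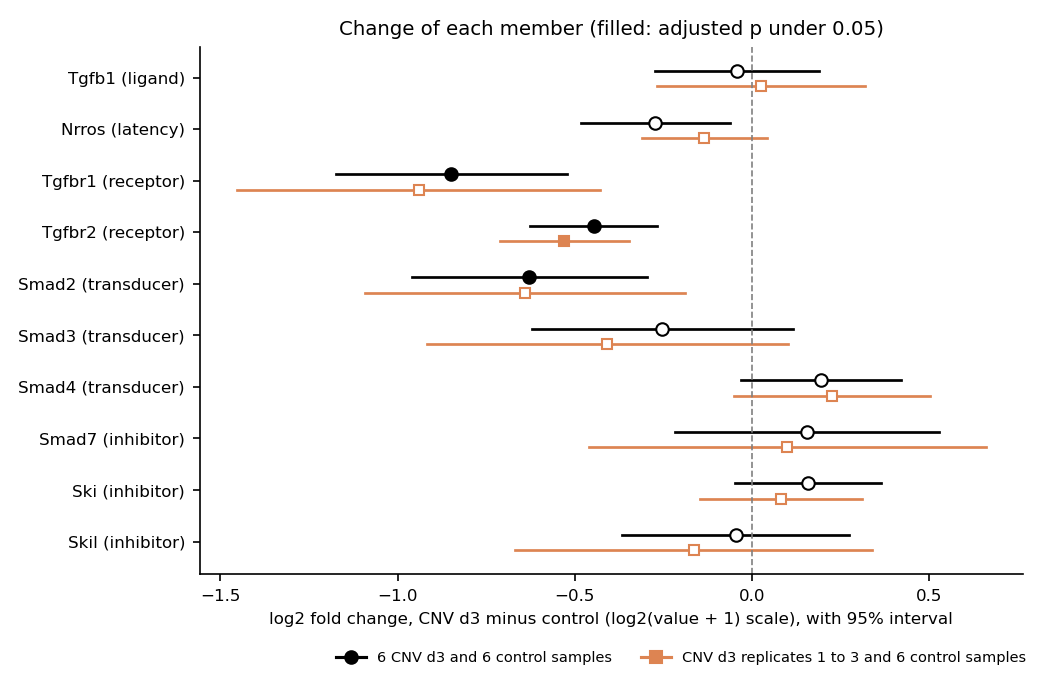
The log2FC of each member (CNV d3 minus control, on the log2(normalized counts + 1) scale) with its 95% interval, from 6 CNV d3 against 6 control samples (black circles) and from CNV d3 replicates 1 to 3 against the 6 control samples (orange squares). Filled symbols have a padj under 0.05. *Tgfbr1*, *Tgfbr2* and *Smad2* lie left of 0 in both comparisons, at -0.85, -0.45 and -0.63 with all samples.

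The spread of the members differed within groups. In control, the coefficient of variation was lowest for *Nrros* (5.94%) and *Tgfbr2* (7.11%) and highest for *Smad3* (25.1%) and *Smad7* (27.4%). At CNV d3 it lay between 12.5% and 20.2% for the 10 members. Counting error was smaller than this, since the lowest value behind any member was 741 reads, which gives 3.67%. Control replicate 5 had the highest value of the control group for 3 members (*Nrros*, *Tgfbr1* and *Smad2*) and the lowest for 4 (*Tgfbr2*, *Smad3*, *Smad7* and *Ski*). CNV d3 replicate 4 was the highest of its group for 5 members and CNV d3 replicate 1 for 4.

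Levels of different genes were compared per kilobase of exon. In control, the order was *Tgfbr1* (8402 normalized counts per kb), *Tgfbr2* (4343), *Nrros* (1890), *Ski* (1327), *Tgfb1* (685), *Skil* (661), *Smad4* (527), *Smad3* (322), *Smad7* (293) and *Smad2* (285). The first 4 and *Tgfb1* followed each other without overlap between neighbouring ranges. *Tgfb1* and *Skil*, *Skil* and *Smad4*, *Smad3* and *Smad7*, and *Smad7* and *Smad2* overlapped with their neighbours. At CNV d3 the order of the means was the same except that *Smad7* (318) stood above *Smad3* (268), whose ranges overlapped. *Tgfbr1* (4659) still led *Tgfbr2* (3202) in all 6 samples, although their ranges overlapped here. *Nrros* (1577) stood above *Ski* (1482) in 4 of the 6 CNV d3 samples, after all 6 in control, and their ranges overlapped. Neighbouring ranges also overlapped at CNV d3 for *Tgfb1* and *Skil*, *Skil* and *Smad4*, and *Smad3* and *Smad2*.

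**Figure D3:**
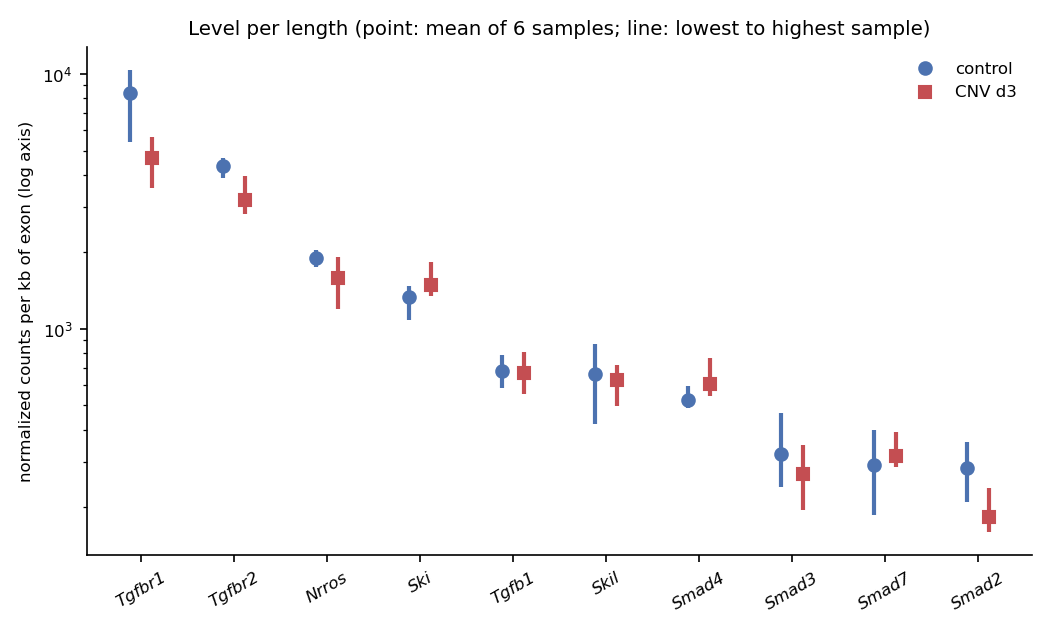
Level of each member per kilobase of exon (normalized counts per kb, log axis) in control (blue circles) and at CNV d3 (red squares). Points are means of 6 samples and lines reach from the lowest to the highest sample. The receptors lead in both groups, from 8402 for *Tgfbr1* in control down to 183 for *Smad2* at CNV d3.

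Ratios between 2 members in the same sample do not depend on the size factor of the sample. Of 5 ratios, none passed the test after adjustment over the 5 (two-sided exact permutation test over 924 labellings of the samples). The log2 ratio of *Tgfbr1* to *Tgfbr2* was 0.60 ± 0.36 in control and 0.20 ± 0.17 at CNV d3 (SD, n = 6 each), where 5 of 6 control samples lay above all CNV d3 samples and control replicate 3 (0.01) below all of them (exact p = 0.0368, adjusted p = 0.0613). The log2 ratio of *Nrros* to *Tgfb1* was 1.20 ± 0.15 in control and 0.97 ± 0.12 at CNV d3 (exact p = 0.026, adjusted p = 0.0613). That of *Smad3* to *Smad4* was -0.16 ± 0.40 in control and -0.61 ± 0.23 at CNV d3 (exact p = 0.0368, adjusted p = 0.0613). The ratios of *Smad3* to *Smad2* (difference 0.38, exact p = 0.182) and of *Skil* to *Ski* (difference -0.20, exact p = 0.284) did not pass without adjustment either. The *Smad3* to *Smad2* difference ran from 0.22 without control replicate 5 to 0.56 without control replicate 2 (adjusted exact p = 0.0541). That of *Skil* to *Ski* ran from -0.32 without control replicate 3 to -0.10 without control replicate 5, with -0.13 without CNV d3 replicate 2. Without CNV d3 replicates 4 to 6, the 5 differences kept their sign and the lowest adjusted p of the exact test was 0.119.

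**Figure D4:**
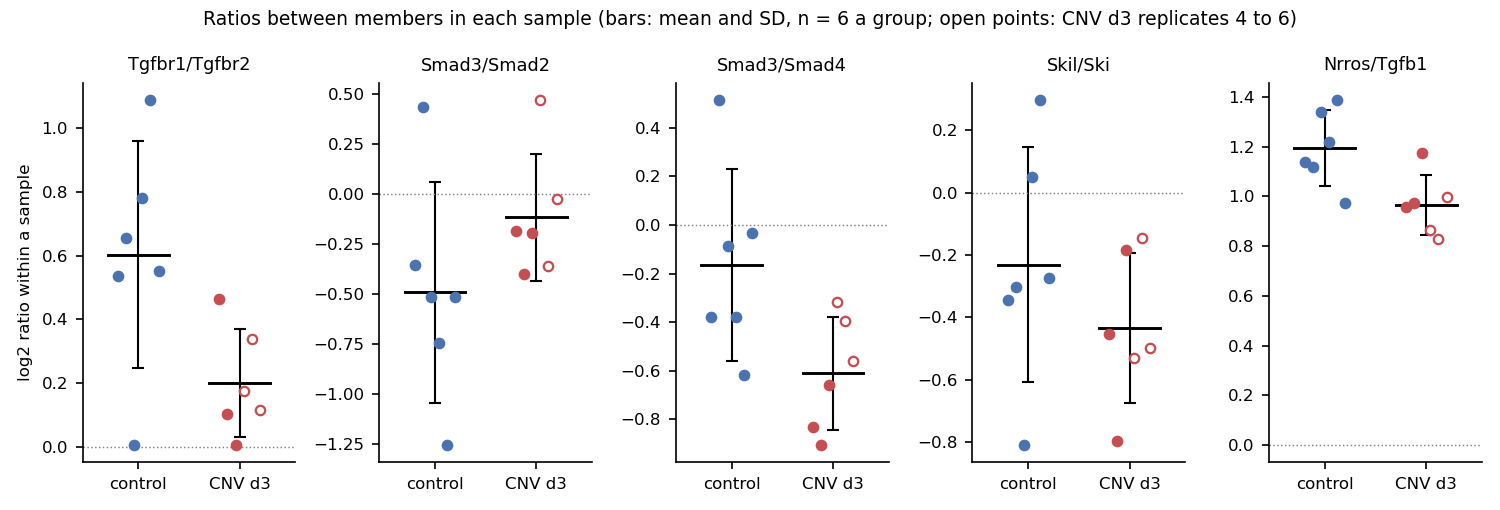
Log2 ratio of 2 members within each sample, with mean and SD of the 6 control and 6 CNV d3 samples as black lines. Each panel has its own axis, which does not start at 0. Open points are CNV d3 replicates 4 to 6. The *Tgfbr1* to *Tgfbr2* ratio has a mean of 0.60 in control and 0.20 at CNV d3, with control replicate 3 (0.01) far below the other control samples.

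The wider pathway was read from lists of other signalling genes, of which 64 were measured besides the members. Of these, 8 were called higher and 7 lower, beside 8.29% and 4.57% of all genes. When CNV d3 replicates 4 to 6 were left out, 5 were called higher and 4 lower, beside 3.74% and 1.98% of all genes. Their median log2FC was 0.05. The other ligands were scarce: *Tgfb2* had a mean of 4.69 normalized counts in control and 5.39 at CNV d3 (padj = 0.603 by limma). *Tgfb3* had 0 reads in all control samples and a mean of 8.1 normalized counts at CNV d3 (padj = 0.0321 by limma), at least 1.36-fold higher than 3 reads in the shallowest control sample. The 3 other receptor genes were not called. The type 1 receptor *Acvrl1* had a log2FC of -0.42 (padj = 0.0631 by limma). The co-receptors *Eng* and *Tgfbr3* had -0.34 (padj = 0.192) and 2.65 (padj = 0.206 by limma). *Tgfbr3* had a mean of only 17.1 normalized counts in control and 23.2 at CNV d3. It had 0 reads in 4 control samples, so its log2FC depends on the 1 added before the logarithm.

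Among 13 measured genes of latency and activation, 4 were called higher and 2 lower. The lower genes encode an integrin pair that can release the ligand, *Itgav* (log2FC -0.43, padj = 0.045) and *Itgb3* (log2FC -0.60, padj = 0.0136 by limma). Neither was called without CNV d3 replicates 4 to 6, where their log2FC were -0.56 (padj = 0.135) and -0.73 (padj = 0.0528 by limma). The remaining integrin genes of the list did not fall with this pair. *Itgb1* was called higher (log2FC 0.46, padj = 0.000745 by limma). *Itgb5* was not called, with means of 63916 normalized counts in control and 68146 at CNV d3. *Itgb6* and *Itgb8* were not called and were scarce, with group means of at most 9.58. *Thbs1*, whose product thrombospondin can activate latent TGF-beta, rose with a log2FC of 1.05, and *Furin*, the protease that cuts the propeptide, with 0.76. *Ltbp3*, which binds latent TGF-beta to the matrix, had 2 reads in the control samples together and 345 at CNV d3, a ratio per library of 125 (95% counting interval 34.5 to 1040). Without CNV d3 replicates 4 to 6, 2 genes of this list were called higher, *Ltbp3* and *Itgb1*. In that comparison *Thbs1* and *Furin* missed the call with log2FC of 0.92 and 0.70. Of the inhibitors, 1 of 14 was called higher and 3 lower, and the same counts held without CNV d3 replicates 4 to 6. *Tgif2* (log2FC -2.92) and *Tgif1* (log2FC -0.65) encode repressors of SMAD target genes, and *Pmepa1* (log2FC -0.59) a membrane protein that binds SMAD2 and SMAD3. For these 3 genes all CNV d3 values lay below all control values. *Fkbp1a*, whose product FKBP12 binds the type 1 receptor, rose with a log2FC of 0.42. Of 7 measured SMAD anchors and partners, limma and edgeR called 0, and 2, *Zfyve9* and *Hgs*, were lower at an unadjusted p under 0.05 and by DESeq2. Of 4 ubiquitin ligases and deubiquitinases, limma and edgeR called 0, and *Rnf111* was lower at an unadjusted p under 0.05 and by DESeq2. These 3 genes were named after their values were seen.

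Of 20 direct response genes of TGF-beta, of which 4 are members, 6 were called higher and 3 lower, beside 8.29% and 4.57% of all genes, with a median log2FC of 0.16, and 2 and 2 were called without CNV d3 replicates 4 to 6. Among genes with a mean of at least 1000, 22.0% were called higher and 15.1% lower. *Id1* (log2FC 4.27), *Bhlhe40* (3.09) and *Klf10* (1.67), which encode transcriptional regulators, rose, while *Rhob* (log2FC -0.88), a small GTPase, fell with *Tgif1* and *Pmepa1*. Without CNV d3 replicates 4 to 6 these 4 genes missed the call. Their log2FC there were 4.32 for *Id1*, 3.37 for *Bhlhe40*, 1.56 for *Klf10* and -0.60 for *Rhob*. The 2 genes called higher there were *Id2* (log2FC 1.79, padj = 0.0025) and *Tgfbi* (log2FC 1.18, padj = 0.0251 by limma), named here for that count. *Id1* had 0 reads in 4 control samples, so its log2FC depends on the 1 added before the logarithm. Its mean was 7.33 normalized counts in control and 59.2 at CNV d3, and the groups overlapped. Of 20 microglial genes that need TGF-beta, 13 were called lower and 2 higher, with a median log2FC of -0.53. Over all genes 4.57% were called lower and 8.29% higher. All genes of this list had a mean of at least 1000, and among such genes 15.1% were called lower and 22.0% higher. The purine receptors *P2ry13* (log2FC -1.82) and *P2ry12* (log2FC -1.65) and the fructose transporter *Slc2a5* (log2FC -1.46) fell most, and *Gas6* (0.64) and *Bin1* (0.43) rose. Of this list 9 genes also stand among the 12 microglia markers. Of 16 genes raised in microglia without TGF-beta signalling, 13 were called higher and 0 lower by limma, beside 8.29% and 4.57% of all genes. This list was chosen with earlier results of these data known. It holds genes that the paper names as raised here, among them *Spp1*, *Cd74* and *Apoe*, so its count is no independent test. The counts were 12 and 0 by edgeR and 12 and 1 by DESeq2. They were 14 and 0 at an unadjusted p under 0.05, for which no share of all genes is given. The gene that DESeq2 called lower was *Mrc1*, which limma did not call (log2FC -1.44, padj = 0.233 by limma). The median log2FC of this list was 1.76, and *Spp1* (6.85), *Gpnmb* (5.81) and *Msr1* (4.76) led it. Of these, edgeR and DESeq2 did not call *Gpnmb*. *Gpnmb* had 0 reads in 3 control samples, so its log2FC depends on the 1 added before the logarithm. Its mean was 149 normalized counts in control and 1017 at CNV d3, and the groups overlapped. They also overlapped for *H2-Aa* and *H2-Ab1* of this list, which were called higher. Without CNV d3 replicates 4 to 6, 11 genes of the former list were called lower, and 4 of the latter were called higher, while 14 of the latter were higher at an unadjusted p under 0.05, as many as with all samples. The log2FC of the 13 called genes of the latter list lay between 1.23 and 6.85 with all samples and between 1.27 and 6.78 without these 3. Genes of both lists respond to other signals too, and the part of TGF-beta in these values was not tested.

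**Figure D5:**
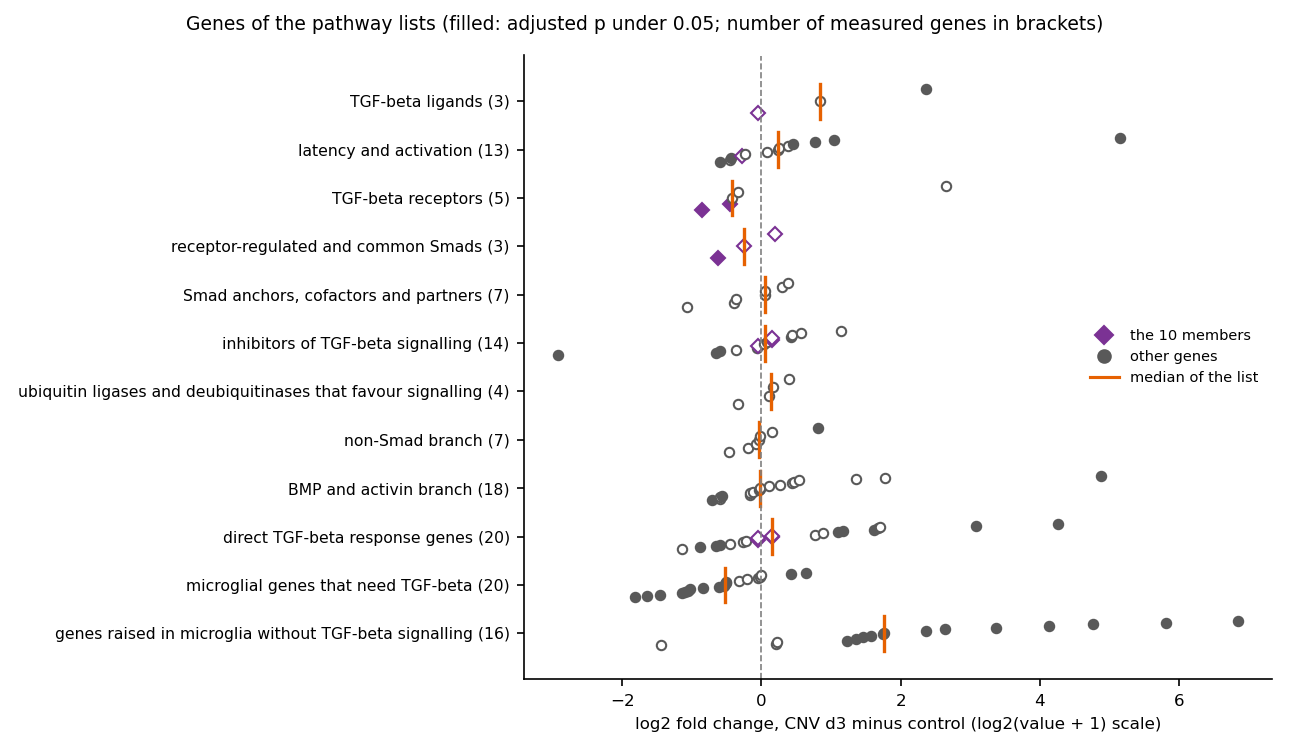
The log2FC (CNV d3 minus control, log2(normalized counts + 1) scale) of each measured gene of 12 pathway lists. Purple diamonds are the 10 members, grey circles other genes, filled symbols have a padj under 0.05, and orange lines are the medians of the lists. The microglial genes that need TGF-beta have a median of -0.53 and the genes raised without it one of 1.76. The medians of the signalling lists lie between -0.42 for the 5 receptors and 0.85 for the 3 ligands. The ligand median is the value of the scarce *Tgfb2*, which was not called (means of 4.69 and 5.39 normalized counts). *Tgfb1* lies at -0.04.

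The genes most like each member were ranked by Pearson's r on log2(normalized counts + 1) over the 12 samples, among genes with a mean of at least 100 normalized counts. The samples share the 2 groups and their depth, so r takes in any shift between groups. *Tgfbr1* was most like *Tmem135* (r = 0.99), *Ctso* (r = 0.97) and *Il6st* (r = 0.97), with r of 0.97, 0.85 and 0.90 within the control samples. *Tgfbr2* was most like *Cables1* (r = 0.96), *Gm29488* (r = 0.96) and *Sall1* (r = 0.95), with r of 0.51, 0.92 and 0.69 within the control samples. *Skil* was most like *Rngtt* (r = 0.96, and 0.97 within control), *Fam111a* (r = 0.93) and *Ints14* (r = 0.88). *Smad2* was most like *Tagap* (r = 0.95). For *Tgfb1*, *Nrros*, *Smad3*, *Smad4*, *Smad7* and *Ski*, the first gene had an r between 0.80 and 0.90.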

How the data were processed

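Bulk RNA-seq of sorted retinal microglia (6 CNV d3 and 6 control samples) was used. Parts of a sample listed separately were counted as 1 sample. The labels list 2 parts for every control sample and for CNV d3 replicate 4, and no separate parts for the other CNV d3 samples. The listing in parts thus nearly follows the groups, and its share in the differences was not tested. According to the methods and the submitters' processing notes, the authors mapped reads with STAR 2.7.2b to GRCm38 (Gencode M25), counted them with featureCounts 1.6.4 and removed genes without reads. The deposited signal of each gene is its reads over the size factor that DESeq2 1.22.2 gave the sample. The authors also deposited group means, fold changes and p-values, which were not used. Values were whole multiples (tolerance 1e-06) of the lowest value above 0 for 100% of genes in every sample, which gave back the reads. These libraries carry no molecular identifiers, so intervals from reads cover counting error only.

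Groups were taken from the labels. All 27299 genes were tested with limma 3.58.1 in R 4.3.3 on log2(value + 1) with a variance trend and Benjamini-Hochberg adjustment. Ratios were tested by exact permutation of sample labels, two-sided. Scripts were tested on simulated data. The members and lists were chosen with earlier results of these data known. Besides the members, from each pathway list up to 3 called genes per direction with the largest log2FC and a mean of at least 10 were named, and other ligands and receptors; genes said to be so and *Itgam* were named after its values were seen. Alternatives were other pseudocounts, a filter, edgeR 4.0.16 and DESeq2 1.42.0 on recovered reads, other scalings, thinning, the replicate block, a *Ddx3y* covariate, no trend and leaving out samples. Coordinates and exon lengths came from Gencode M21 (GRCm38), with 27238 genes matched by identifier; promoters came from RefSeq. No member shares exon bases with another gene. A marker gene of the monocyte list is not reported here and was left out of its counts and sums.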

Additional observations from a re-analysis of the deposited data

Results flagged for a closer look

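In groups of 6 samples, a sample was flagged when its gap to the nearest other sample exceeded the 95% critical share of the range of the group (Dixon). Of 90 groups of members, ratios and named genes, 5 were flagged, where chance flags about 1 in 20. No member and no ratio was among them. In control, *Smad1*, a SMAD of the BMP branch, had 2277 normalized counts in replicate 4, where the next sample had 2832. *Gpnmb* had 647 in control replicate 1 (next 159), *Tgfb2* had 23.6 in control replicate 1 (next 4.5), and *Tgfbr3* had 101 in control replicate 6 (next 1.07). At CNV d3, *Thbs1* had 1863 in replicate 6 (next 1421).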

How the results depend on the processing

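All 3 calls of members kept their direction under the alternatives run, and *Tgfbr1* and *Tgfbr2* were called in each one but for *Tgfbr1* in the comparison without CNV d3 replicates 4 to 6. That comparison called 1022 genes higher, 540 lower and 1 member lower, with fewer samples. The *Ddx3y* covariate called 1351 higher and 739 lower, and an adjusted p under 0.01 called 1183 and 635. DESeq2 called 2493 higher and 2170 lower, so 53.5% of its calls were higher against 64.5% of those of limma; the cause was not tested. *Nrros* was called lower with the filter on low counts (padj = 0.0485 by limma) and with DESeq2 (padj = 0.0461). The log2FC of *Tgfb1* turned to 0.026 with the *Ddx3y* covariate and to 0.025 without CNV d3 replicates 4 to 6, and ran from -0.102 to 0.0067 when single samples were left out, above 0 without CNV d3 replicate 5. That of *Skil* ran from -0.17 to 0.041 when single samples were left out, above 0 without control replicates 4 or 5 or CNV d3 replicate 2. Some members that were not called moved by over 1.5 times when 1 sample was left out: *Smad7* to 0.07 and 0.09 (without control replicate 2 and CNV d3 replicate 4; 0.04 to 0.26 in all), *Smad3* to -0.14 and -0.16 (control replicate 2, CNV d3 replicate 2), *Smad4* to 0.12 (CNV d3 replicate 1) and *Ski* to 0.10 (control replicate 5 or CNV d3 replicate 4). Leaving out single samples gave 1737 to 2319 genes higher, 1022 to 1455 lower, 2 to 4 members lower, and a log2 ratio difference between -0.52 and -0.31 for *Tgfbr1* to *Tgfbr2* (adjusted exact p = 0.0216 without control replicate 3) and between -0.27 and -0.19 for *Nrros* to *Tgfb1* (adjusted exact p = 0.0433 without control replicate 6 or CNV d3 replicate 3).

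Control and CNV d3 samples share replicate numbers, and deviations of samples with the same number correlated between -0.01 and 0.05, so that they share a number and no pairing was shown. For 1 of 6 replicate numbers, the control and the CNV d3 sample each correlated best with the other. With the replicate number as a block, limma called 1885 genes higher, 975 lower, 0 members higher and 3 lower. The *Tgfbr1* to *Tgfbr2* ratio then had an adjusted exact p of 0.156. The control samples were shallower than the CNV d3 samples, which limits genes with few reads rather than the members.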

Other observations

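The BMP and activin branch, which shares *Smad4* with the TGF-beta branch, had 18 measured genes, of which 9 had a mean of at least 10 normalized counts. Of the 18 genes, 1 was called higher and 2 lower, beside 8.29% and 4.57% of all genes, and 15 were not called. The receptor *Bmpr2* (log2FC -0.71, padj = 0.00254) and the transducer *Smad1* (log2FC -0.57, padj = 0.00135 by limma) were lower at CNV d3, each with no overlap between groups. *Smad1* was also called without CNV d3 replicates 4 to 6, where *Bmpr2* had a log2FC of -0.66 (padj = 0.0546 by limma). *Smad5*, a further transducer of this branch, was not called (log2FC 0.12, padj = 0.776 by limma). *Gdf15*, a distant relative of TGF-beta that is induced by stress, had 0 reads in all control samples and a mean of 47.9 normalized counts at CNV d3, at least 8.05-fold higher than 3 reads in the shallowest control sample. In the non-Smad branch, 1 of 7 genes was called: *Map3k7*, which encodes the kinase TAK1, rose from a mean of 866 to 1444 normalized counts (log2FC 0.81, padj = 0.0154 by limma), and had a log2FC of 0.78 without CNV d3 replicates 4 to 6 (padj = 0.207 by limma).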
